A study of Mus musculus with 28 samples.

Results

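Spermatogonial stem and progenitor factors are the genes by which the earliest male germ cells are kept as stem cells or sent on towards meiosis. The 10 genes described here, Gfra1, Kit, Zbtb16, Id4, Sohlh1, Sohlh2, Sall4, Dmrt1, Nanos2 and Nanos3, were chosen by name for these roles. They were 10 of 37206 mouse genes with a matched transcript, and 31 of the 94480 transcripts measured. The level of a gene was the sum of its transcripts in RPKM, reads scaled to the length of the transcript and the depth of the library.

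The study compared Csmd1 knockout mice with wildtype mice by RNA-seq of polyadenylated RNA from testis and from germ cells sorted on Hoechst fluorescence. The 20 sorted libraries came from 3 wildtype and 5 knockout males and the 7 whole testes from 2 wildtype and 5 knockout males, 12 mice in all. In a mouse with both kinds of library, one testis was taken whole and the other was sorted. Gate R5 was labelled spermatogonia (2 wildtype and 2 knockout libraries), R7 primary spermatocyte (2 and 4), R6 secondary spermatocyte (2 and 3) and R4 spermatid (3 and 2).

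The knockout (KO) allele of Csmd1 lacks the first exon and some of the intron after it, with lacZ and a neomycin gene in their place, and the wildtype (WT) mice carried no such allele. The strain was labelled C57BL/6, whereas the methods give a mixed 129SvEvBrd:C57BL/6 background, so alleles of either strain may be present in both genotypes. The methods put males for sorting at 40 ± 1 days, without naming the mice, and the study also had whole testes of immature males (20 days). The ages listed singly at hand were those of wildtype mice 178 and 351 (40 days). For the other mice no single age was at hand, so whether age differed between the genotypes among them could not be checked.

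In the testis, single stem cells and their undifferentiated progeny lie on the basement membrane and depend on GDNF from Sertoli cells, received by the Gfra1 and Ret receptors. Zbtb16, Id4 and the RNA-binding proteins Nanos2 and Nanos3 are known for keeping these cells undifferentiated. Retinoic acid turns them into differentiating spermatogonia, which use the Kit receptor and the transcription factors Sohlh1 and Sohlh2 and then enter meiosis as primary spermatocytes. Sall4 and Dmrt1 are found in both states.

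The mean level of Csmd1, the targeted gene, was in no gate or tissue lower in the knockout than in the wildtype libraries. In R5 it stood at 0.248 and 0.033 RPKM in wildtype mice 178 and 648 and at 0.049 and 4.96 RPKM in knockout mice 286 and 544. In R7 it was 0.132 and 0.069 RPKM in wildtype mice 178 and 648, and 0.210, 0.436, 2.09 and 0.678 RPKM in knockout mice 544, 550, 613 and 614. Every knockout R7 library was thus above both wildtype ones. In R6 the wildtype values were 0.713 and 0.093 RPKM (mice 178 and 648) and the knockout values 0.691, 2.76 and 2.33 RPKM (mice 286, 544 and 550). R4 gave 1.66, 0.575 and 0.180 RPKM in wildtype mice 178, 351 and 648 and 1.21 and 6.33 RPKM in knockout mice 286 and 544. The whole testes of wildtype mice 178 and 648 had 1.25 and 0.058 RPKM, and those of knockout mice 214, 269, 273, 286 and 308 had 2.10, 0.217, 1.76, 0.396 and 0.184 RPKM. Reads from the exons after the deleted one still count towards Csmd1, so these levels cannot check the genotype labels.

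Several libraries stood apart from others of their label before any comparison. The R5 library of knockout mouse 544 held 1402 RPKM of the spermatid gene Prm1 (protamine 1), against 92.9, 0.094 and 0.348 RPKM in R5 of mice 178, 648 and 286. The R4 libraries of wildtype mouse 648 and knockout mouse 286, labelled spermatid, held 0.579 and 2.14 RPKM of Prm1, whereas R4 of mice 178, 351 and 544 held 2579, 1299 and 930 RPKM. Among whole testes Prm1 was 603 RPKM in wildtype mouse 178 and 0.681 RPKM in wildtype mouse 648, and 1152, 0.850, 1922, 1.16 and 0.439 RPKM in knockout mice 214, 269, 273, 286 and 308. Low and high values of Prm1 thus occurred in both genotypes. Prm1 was low in every library of mice 648 and 286, at 0.342 and 0.691 RPKM in R7 and R6 of mouse 648 and 1.99 RPKM in R6 of mouse 286, and whether age had a part in this was not tested. The R7 library of knockout mouse 613 had been quantified differently: 14.1% of its low values lay on whole reads, against at least 93.1% in every other library of the series. This check took transcripts of 200 to 2500 bases and values of up to 6 reads, with a tolerance of 0.06.

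The R5 libraries carried genes of other cells beside those of spermatogonia. The 6 spermatocyte genes summed to 1956, 666, 1277 and 352 RPKM in R5 of mice 178, 648, 286 and 544, with Sycp3 most abundant in each. In R7 they summed to 708, 2362, 1312, 1148, 412 and 576 RPKM in mice 178, 648, 544, 550, 613 and 614, so that in mouse 178 R5 was above R7. The 6 spermatid genes summed to 462, 2.37, 6.61 and 10820 RPKM, led by Tnp1, Acrv1, Tnp2 and Prm2 in the same order of mice, and Prm2 was at 0 in mouse 648. Mouse 544 was thus far above the others in spermatid genes and lowest in spermatocyte genes. The 6 peritubular and stromal genes summed to 131, 819, 199 and 30.7 RPKM with Dcn highest throughout, and the 6 Leydig cell genes to 15.1, 328, 10.7 and 24.2 RPKM, with Cyp17a1 at 160 RPKM in mouse 648 and Insl3 leading in the rest. The wildtype R5 library of mouse 648 therefore held the most somatic RNA by both lists.

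Of the 6 Sertoli cell genes, Wt1 was the most abundant in each R5 library. Rhox5 was listed at 0 in every library, whole testes included, except R7 of mouse 613 (0.453 RPKM). Its 0 in R5 is thus no sign that Sertoli cell RNA was absent. The 6 genes summed to 51.8, 101.1, 55.3 and 60.2 RPKM in R5 of mice 178, 648, 286 and 544. The 6 macrophage genes, led by Cd68, summed to 14.1, 52.9, 8.78 and 8.15 RPKM, and the 4 endothelial genes, led by Tek, Cdh5, Pecam1 and Tek, to 4.10, 14.2, 9.09 and 3.28 RPKM. Genes of mast cells, which also use Kit, were near 0: the 4 genes summed to 0.362, 0.121, 0.749 and 0.092 RPKM, Fcer1a was listed at 0 in all 4 R5 libraries, and Mcpt4 and Tpsb2 were at 0 in mice 648 and 544. What part RNA of the other cell types had in the results that follow was not tested. In bulk RNA, fewer cells of a type and less RNA per cell cannot be told apart.

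**Figure D1:**
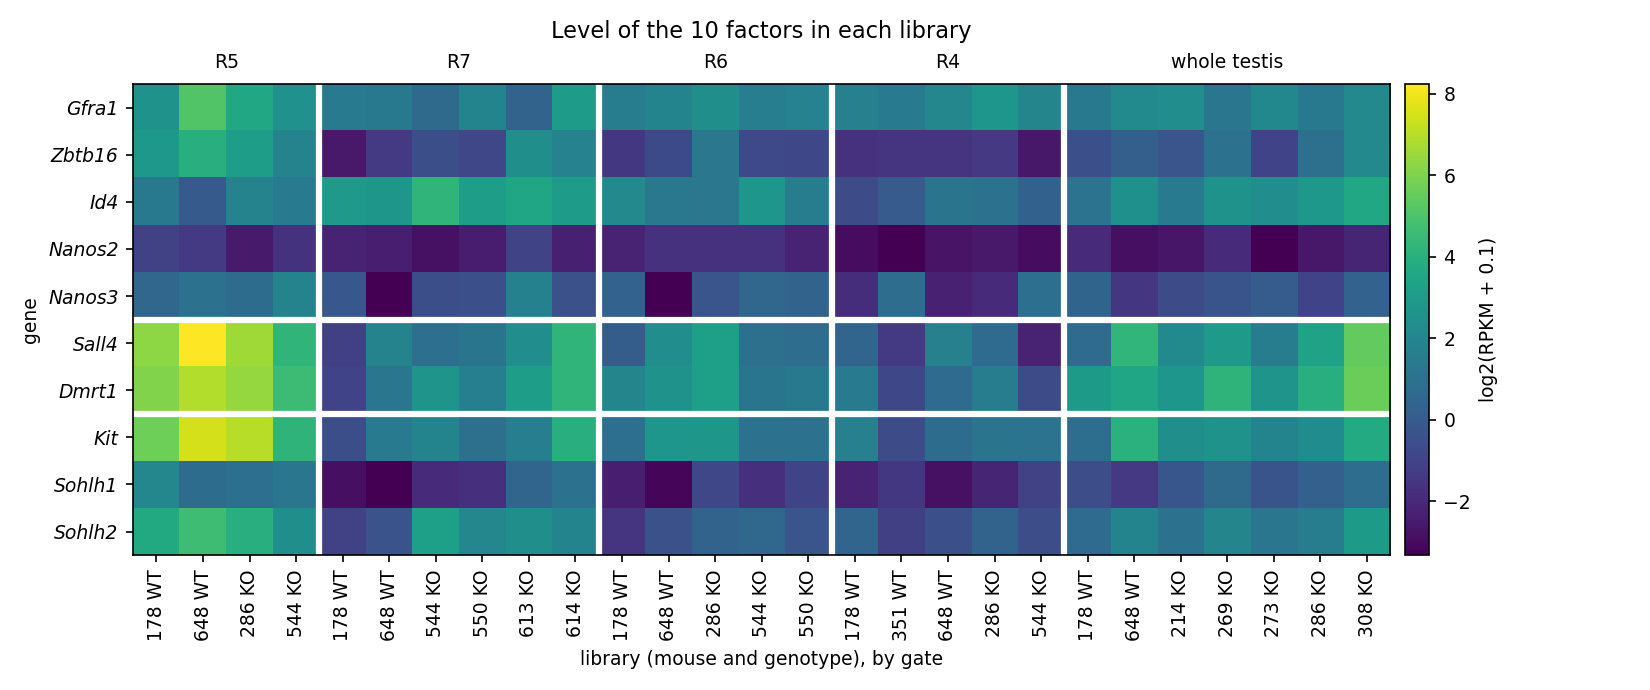
Level of each of the 10 factors, as log2(RPKM + 0.1), in the 20 sorted libraries and 7 whole testes, 1 column per library, with undifferentiated factors on top, factors of both states in the middle and differentiating factors below. Sall4, Dmrt1 and Kit are brightest in R5, and Id4 is brighter in R7 than in R5.

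Levels of different genes could not be compared as directly as the same gene between libraries. Reads shared by overlapping transcripts had been counted in each, so the sum over the 9 transcripts of Gfra1, 7 of Sall4, 6 of Kit and 3 of Dmrt1 is too high against genes with 1 transcript. In R5 the sum was 4.47 to 6.02 times the longest transcript for Kit and 5.09 to 5.59 times for Sall4. The other 6 genes had 1 transcript each, and for these the reads behind a value could be estimated from the depth of each library.

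Kit encodes the receptor tyrosine kinase for stem cell factor and marks spermatogonia that have begun to differentiate. Kit stood at 51.2 and 183 RPKM in R5 of wildtype mice 178 and 648 and at 128 and 18.2 RPKM in R5 of knockout mice 286 and 544. In R7 it ranged from 0.584 to 15.6 RPKM (median 2.76, n = 6), and in R6 the 5 libraries held 1.75, 6.58, 6.93, 1.92 and 1.91 RPKM (mice 178, 648, 286, 544 and 550). In R4 the values were 3.15, 0.533, 1.61, 2.07 and 2.01 RPKM in mice 178, 351, 648, 286 and 544. All 4 R5 libraries lay above all 16 other sorted libraries, as for 3.93% of the genes tested, the nearest pair being R5 of mouse 544 and R7 of knockout mouse 614. R5 exceeded the mean of the other gates by 4.73 ± 0.71 (SE) on the log2 scale (limma, adjusted p = 0.000228), and by 2.87 to 5.88 within each of 4 mice.

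Kit was read from 2 nearly full-length coding transcripts and 4 short ones annotated as retaining an intron, on chr5:75574916-75656722 (GRCm38, plus strand). The coding transcript ENSMUST00000005815 held 11.5, 30.6, 24.1 and 3.80 RPKM in R5 of mice 178, 648, 286 and 544. The retained-intron transcript ENSMUST00000143221 held 12.7, 93.6, 48.9 and 2.94 RPKM in the same libraries. It was more than the coding transcript in mice 178, 648 and 286, and in mouse 544 another retained-intron transcript, ENSMUST00000136002, was more (4.66 RPKM). Retained-intron transcripts made up 55.1%, 66.7%, 62.4% and 58.4% of the Kit sum in R5 of mice 178, 648, 286 and 544, and 37.5% to 68.8% in the 7 whole testes. In R7 of mouse 613 they made up 2.82%, and of the 2 coding transcripts, nearly equal in every other library, one was at 0 there and the other at 2.89 RPKM. Reads shared by overlapping transcripts were counted in each outside that library. The shares of the Kit sum therefore do not give the part of Kit RNA that kept an intron. With the longest transcript alone, R5 of mouse 648 remained the highest for Kit, at 30.4 RPKM.

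**Figure D2:**
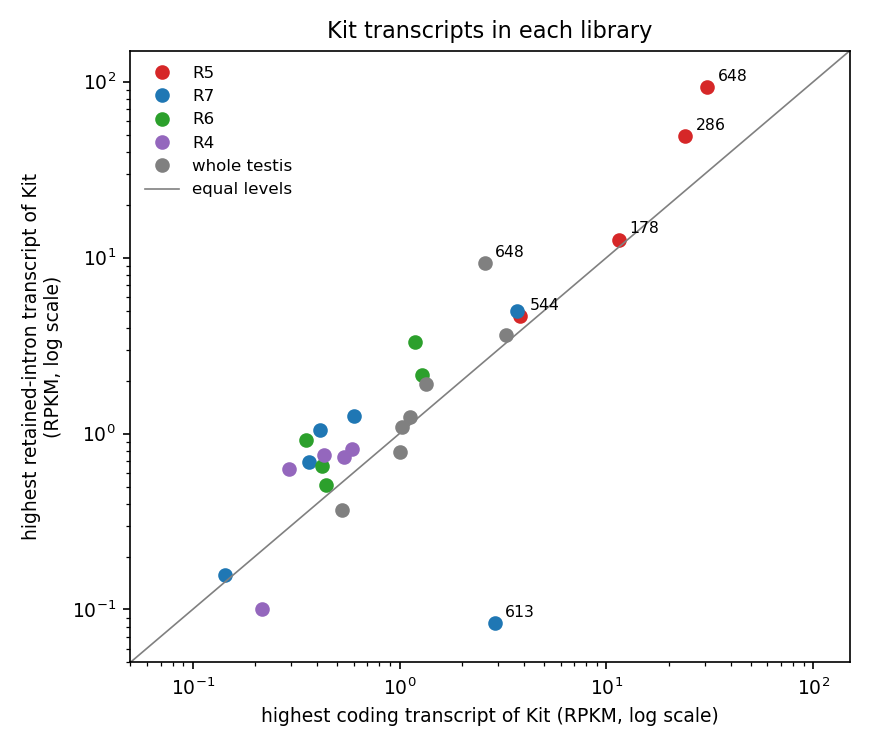
Highest coding transcript of Kit (x axis, RPKM, log scale) against its highest retained-intron transcript (y axis, RPKM, log scale) in 20 sorted libraries and 7 whole testes, 1 point per library, with a line of equal levels. R5 of mouse 648 (30.6 and 93.6 RPKM) lies above the line, and R7 of mouse 613 (2.89 and 0.0839 RPKM) lies far below it.

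Gfra1, the GDNF receptor of the stem cells, differed less between gates than Kit. It stood at 5.76 and 34.5 RPKM in R5 of wildtype mice 178 and 648 and at 11.7 and 5.71 RPKM in R5 of knockout mice 286 and 544. In R7 it ranged from 1.20 to 8.16 RPKM (median 2.49, n = 6), in R6 from 2.93 to 5.23 RPKM (median 3.43, n = 5) and in R4 from 2.75 to 6.73 RPKM (median 3.73, n = 5). The lowest R7 value came from mouse 613, the differently quantified library, where the longest Gfra1 transcript was at 0. Its sum over transcripts may therefore not compare with the sums of other libraries. The R5 range overlapped those of R7 and R4, and the highest value came from the library with the most stromal and Leydig cell RNA. R5 minus the other gates was 1.21 ± 0.57 (SE) on the log2 scale and was not called (limma, adjusted p = 0.101). It was called with mouse as a block, as libraries of 1 mouse are paired (adjusted p = 0.0304), and on the values as deposited (1.66, adjusted p = 0.0121). Against R7 the difference was 1.505 ± 0.67 (adjusted p = 0.0992), called with the block (adjusted p = 0.0367), on the values as deposited (adjusted p = 0.0129) and without mouse 614 (adjusted p = 0.0421). Without mouse 648 the differences fell to 0.55 from the other gates and 0.78 from R7, and without mouse 178 they were 1.86 and 2.22, none of them called. Within mice the difference from the other gates was 0.98 in mouse 178, 3.36 in mouse 648, 0.97 in mouse 286 and 1.12 in mouse 544.

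Zbtb16 encodes PLZF, a zinc finger repressor needed for stem cell maintenance. Its level in R5 was 7.05 and 15.5 RPKM in wildtype mice 178 and 648 and 8.72 and 3.55 RPKM in knockout mice 286 and 544, resting on 677 to 3591 reads. In R7 it ranged from 0.073 to 5.29 RPKM (median 0.516, n = 6), in R6 from 0.271 to 2.33 RPKM (median 0.488, n = 5) and in R4 from 0.067 to 0.273 RPKM (median 0.230, n = 5). Only R7 of mouse 613, the differently quantified library, exceeded the lowest R5 value. Zbtb16 was higher in R5 than in the other gates by 3.38 ± 0.54 on the log2 scale (limma, adjusted p = 0.000280), in 4 of 4 mice. Against R7 the difference was 2.69 ± 0.63 (adjusted p = 0.00479), and without mouse 648 it was 2.70 and not called (adjusted p = 0.0509).

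Id4, an inhibitor of basic helix-loop-helix factors known as a marker of the stem cell fraction, was lower in R5 than in R7. R5 held 2.49 and 0.876 RPKM in wildtype mice 178 and 648 and 3.52 and 2.54 RPKM in knockout mice 286 and 544, from 153 to 558 reads. R7 held 7.35 and 6.83 RPKM in wildtype mice 178 and 648 and 19.0, 8.60, 11.4 and 8.31 RPKM in knockout mice 544, 550, 613 and 614. The R5 and R7 ranges did not overlap, and the share of all genes so placed was not counted. R6 (2.27 to 6.63 RPKM, median 2.92, n = 5) and R4 (0.527 to 2.09 RPKM, median 1.11, n = 5) each overlapped R5. The difference of R5 from R7, −2.59 ± 0.50 on the log2 scale, was called (limma, adjusted p = 0.00159) and negative in 3 of 3 mice with both gates. The call held without each mouse and under each alternative run.

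Against the mean of the 3 other gates, Id4 differed by −1.24 ± 0.42 (limma, adjusted p = 0.0264), and this call did not hold throughout. On the values as deposited the difference was −0.64 (adjusted p = 0.228), with missing transcripts counted as 0 −1.10 (adjusted p = 0.0578), in wildtype libraries alone −1.63 (adjusted p = 0.0779), without mouse 544 −0.95 (adjusted p = 0.149) and without mouse 648 −0.82 (adjusted p = 0.226). Leaving out only the R5 library of mouse 544 gave −1.03 (adjusted p = 0.0967), and this alternative and the counting as 0 were chosen after seeing the data. Within mice it was −0.07 in mouse 178, −1.78 in mouse 648 and −1.03 in mouse 544. Mouse 286, at 0.71, had no R7 library and was compared with R6 and R4 alone.

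Sohlh1 and Sohlh2 are basic helix-loop-helix transcription factors of early differentiating spermatogonia and bind E-boxes, sites with the letters CANNTG. Sohlh2 stood at 12.9 and 24.8 RPKM in R5 of wildtype mice 178 and 648 and at 15.5 and 5.29 RPKM in R5 of knockout mice 286 and 544. It was lower in most other libraries: 0.388 to 9.11 RPKM in R7 (median 3.79, n = 6), 0.243 to 1.42 RPKM in R6 (median 0.722, n = 5) and 0.355 to 1.28 RPKM in R4 (median 0.599, n = 5). The 4 knockout R7 libraries, at 3.56 to 9.11 RPKM, were all above the wildtype ones at 0.388 and 0.671 RPKM, and in mouse 544 R7 exceeded R5. Sohlh2 was higher in R5 than in the other gates by 3.17 ± 0.44 on the log2 scale (limma, adjusted p = 0.000155). Against R7 it was higher by 2.23 ± 0.52 (adjusted p = 0.00462), in 2 of 3 mice, and without mouse 648 the difference was 2.12 and not called (adjusted p = 0.0524).

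Sohlh1 was far less abundant, at 3.99 and 1.62 RPKM in R5 of wildtype mice 178 and 648 and 1.75 and 2.21 RPKM in R5 of knockout mice 286 and 544. These values rested on 300, 95, 83 and 106 reads, while R7 and R6 of mouse 648 held 0 and 1. The highest other value, 1.96 RPKM in R7 of mouse 614 (87 reads), overlapped R5, and R7 of mouse 613 held 1.26 RPKM. Sohlh1 was higher in R5 than in the other gates by 2.57 ± 0.46 on the log2 scale (limma, adjusted p = 0.000576) and higher than in R7 by 2.37 ± 0.54 (adjusted p = 0.00420), in every mouse with both gates. Both sets of calls held without each mouse.

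RefSeq promoters (GRCm38.p6) were found for 7 of the 10 genes, all but Zbtb16, Sall4 and Dmrt1. The 250 bases before the start are printed here for Sohlh1 and Sohlh2, which were called higher in R5 together, to show where E-boxes lie, with each CANNTG in capitals. Sohlh1 is read at chr2:25847249-25847498 (minus strand) and Sohlh2 at chr3:55181794-55182043 (plus strand).
Sohlh1: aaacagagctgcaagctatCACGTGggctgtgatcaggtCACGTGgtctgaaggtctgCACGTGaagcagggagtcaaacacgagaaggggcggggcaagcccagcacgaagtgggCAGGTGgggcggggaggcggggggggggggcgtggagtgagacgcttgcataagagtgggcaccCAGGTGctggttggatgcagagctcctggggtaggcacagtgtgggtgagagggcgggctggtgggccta
Sohlh2: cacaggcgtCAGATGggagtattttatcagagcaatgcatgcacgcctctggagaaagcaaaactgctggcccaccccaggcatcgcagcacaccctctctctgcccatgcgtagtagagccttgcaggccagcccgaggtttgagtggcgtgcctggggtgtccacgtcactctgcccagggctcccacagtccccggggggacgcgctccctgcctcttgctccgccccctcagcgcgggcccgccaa
CACGTG was present 3 times in Sohlh1, 231, 211 and 192 bases before the start, and in none of the other 6 promoters. Among 32851 mouse promoters of this length, 6% held it at least once and 0.06% (20 promoters) 3 times or more. CANNTG, which includes CACGTG and CAGCTG and reads alike on both strands, was present 5 times in Sohlh1, once in Sohlh2, 3 times in Gfra1 and 2 times in Nanos3, and was absent from Kit, Id4 and Nanos2. It occurred in 66.2% of all promoters, and CAGCTG, present once in Gfra1, in 13%. A match is a run of letters and not a measured binding site.

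Sall4 and Dmrt1, transcription factors that act in both undifferentiated and differentiating spermatogonia, were with Kit the most abundant factors of R5 by summed transcripts. Sall4 stood at 77.3 and 302 RPKM in R5 of wildtype mice 178 and 648 and at 96.3 and 19.0 RPKM in R5 of knockout mice 286 and 544. Outside R5 it ranged from 0.115 to 18.6 RPKM (median 1.81, n = 16). R5 did not overlap the other gates, although its lowest library, mouse 544, was close to the highest other one, R7 of mouse 614. Sall4 had the largest difference among the 10 genes, 5.45 ± 0.83 on the log2 scale (limma, adjusted p = 0.000245), and was higher than in R7 by 4.84 ± 0.98 (adjusted p = 0.00215).

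Dmrt1 stood at 66.0 and 120 RPKM in R5 of wildtype mice 178 and 648 and at 86.1 and 24.5 RPKM in R5 of knockout mice 286 and 544. Outside R5 it ranged from 0.394 to 18.7 RPKM (median 2.70, n = 16). As for Sall4 and Kit, no other sorted library reached the lowest R5 value. The difference from the other gates was 4.53 ± 0.61 on the log2 scale (limma, adjusted p = 0.000151) and that from R7 4.22 ± 0.72 (adjusted p = 0.000869), positive in every mouse. Leaving out any 1 mouse kept the calls of Sall4, Dmrt1 and Kit, with log2 differences from the other gates of 5.003 to 5.89, 4.14 to 4.93 and 3.87 to 5.61.

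Nanos2 and Nanos3 encode RNA-binding proteins that repress translation and differentiation in germ cells. Nanos2 was barely detected, at 0.393 and 0.291 RPKM in R5 of wildtype mice 178 and 648 and 0.076 and 0.224 RPKM in R5 of knockout mice 286 and 544. These values stood for 36, 21, 4 and 13 reads. Over the other sorted libraries with a read estimate it held 0 to 21 reads, and R7 of mouse 613 was highest at 0.420 RPKM. Nanos2 was not called between R5 and the other gates (0.44 ± 0.31 on the log2 scale, limma, adjusted p = 0.269) or R7 (−0.03 ± 0.36, adjusted p = 0.966, and 0.57 on the values as deposited). Within the 3 mice with both gates, on the deposited values, it was above R7 by 1.18, 0.98 and 1.18 (mice 178, 648 and 544). Without mouse 286 the difference from R7 was 0.05.

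Nanos3 stood at 1.32 and 1.93 RPKM in R5 of wildtype mice 178 and 648 (56 and 64 reads) and at 1.60 and 3.46 RPKM in R5 of knockout mice 286 and 544 (43 and 94 reads). Elsewhere it ranged from 0 reads in R7 and R6 of mouse 648 to 3.29 RPKM in R7 of mouse 613, and R4 of mice 351 and 544 held 1.67 and 1.76 RPKM. R5 overlapped the other gates. The difference was 1.20 ± 0.77 on the log2 scale (limma, adjusted p = 0.221), positive in 4 of 4 mice, and 1.15 ± 0.90 against R7 (adjusted p = 0.364), and neither was called. Without mouse 648 the differences were 0.37 and 0.04, and without mouse 178 they were 1.85 and 2.25.

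**Figure D3:**
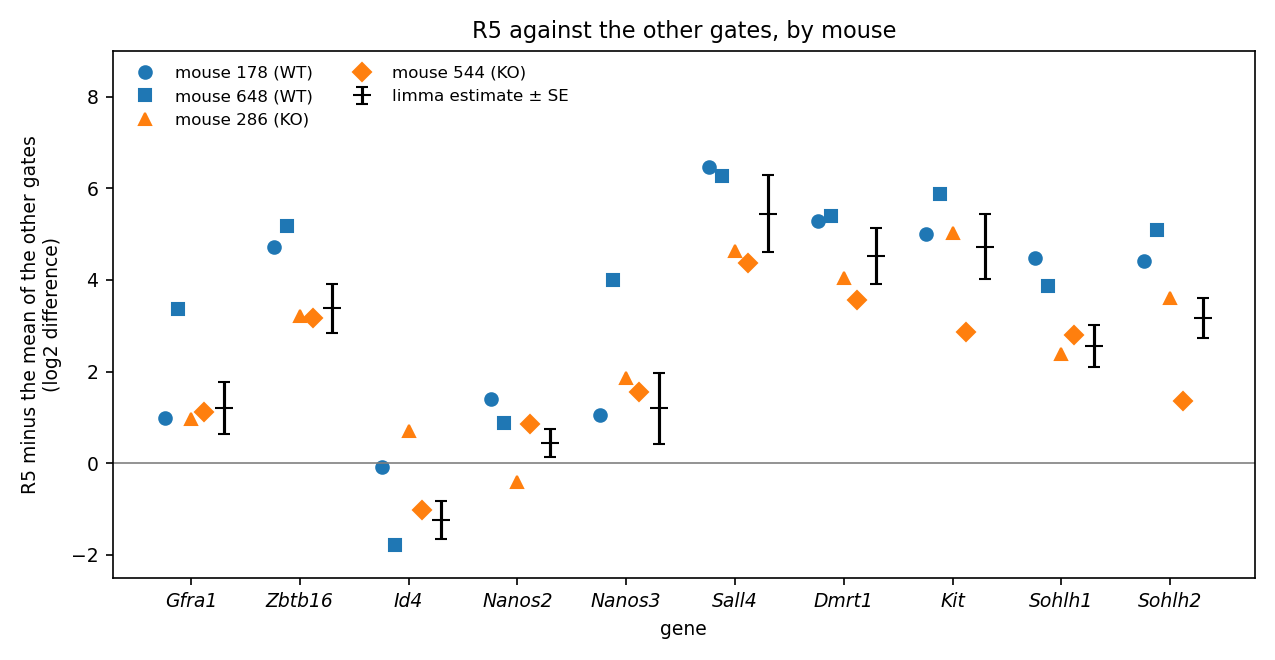
R5 minus the mean of the other gates of the same mouse (R6 and R4 alone in mouse 286), on the log2(RPKM + 0.1) scale of the deposited values, for each of 10 genes in 4 mice (circles and squares wildtype, triangles and diamonds knockout), with the limma estimate on quantile-normalized values ± SE. The limma estimate is largest for Sall4 (4.37 to 6.47 within mice), and Id4 spans 0 (−1.78 to 0.71).

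By order of gate medians, 9 of the 10 genes were highest in R5 and Id4 in R7. The share of all genes with their highest gate median in R5 was not counted. In the limma fit, 6 of 10 were called higher in R5 than in the other gates (Zbtb16, Sohlh1, Sohlh2, Sall4, Dmrt1 and Kit), where 20.9% of the 19039 genes tested were, and 1 was called lower (Id4), where 21.0% were. In either direction 7 of 10 were called, against 41.8% of genes. The median log2 difference of the 10 genes was 2.87, against −0.07 over all genes tested. All 10 passed the filter on low values. The number of genes called depended on single mice: 7965 in all, 3693 without mouse 286 and 3775 without mouse 648, with 7 and 6 of the 10 factors called. Without the R5 library of mouse 544 8952 genes and 6 factors were called, and without the R4 libraries of mice 648 and 286 8114 genes and 7 factors, both alternatives chosen after seeing the data. The split also moved with the scaling, from 3974 higher and 3991 lower to 5149 and 2523 on the values as deposited, where the median of all genes was 0.21.

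Against R7, labelled primary spermatocyte, 7 of 10 were called, the same 6 higher and Id4 lower, where 31.5% of genes were called, 15.2% higher and 16.2% lower. The median difference of the 10 genes was 2.30, against −0.07 over all genes. Of all genes 2898 were higher and 3091 lower, and 4192 and 1809 on the values as deposited, with a median of all genes of 0.27. Leaving out mouse 648, 178 or 286 reduced the 5989 genes called to 2243, 3000 and 3538, and 5 of the 10 factors were called without mouse 648, 8 without mouse 614. With mouse as a block 8 were called, Gfra1 being added, both here and against the other gates.

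Other genes of the same cells mostly went the same way. Of 16 other genes of undifferentiated spermatogonia, 15 passed the filter (Pax7, at 0.012 to 0.373 RPKM in R5, did not). Of these 11 were higher in R5 than in the other gates and 2 lower, with a median of 2.68. The 11 include Neurog3, which passed the filter only through R5 (0.192 to 1.087 RPKM). It was 0.172 RPKM in R7 of mouse 613 and at most 0.088 RPKM in the other sorted libraries. Uchl1, a ubiquitin hydrolase, was the most abundant in each R5 library at 448, 208, 258 and 216 RPKM in mice 178, 648, 286 and 544. It was higher by 4.21 ± 0.51 on the log2 scale, the RNA-binding protein Lin28a by 4.28 ± 0.70 and the transcription factor Sox3 by 3.44 ± 0.59 (limma, adjusted p = 0.000122, 0.000335 and 0.000429). Ret, the partner of Gfra1, was higher by 2.74 ± 0.53 (adjusted p = 0.000969) at 0.698 to 6.10 RPKM. The lower ones were Bcl6b (−1.27, adjusted p = 0.0482) and Tspan8 (−2.38, adjusted p = 0.000762), a tetraspanin at 0.334 to 1.25 RPKM in R5. The list summed to 518, 416, 346 and 258 RPKM in R5 of mice 178, 648, 286 and 544.

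Of 8 other genes of differentiating spermatogonia, 6 were higher in R5 and 1 lower, with a median of 3.34. Stra8, the retinoic acid target that opens meiosis, stood at 63.5, 87.1, 127 and 21.0 RPKM in R5 of mice 178, 648, 286 and 544 and was higher by 4.57 ± 0.76 on the log2 scale (limma, adjusted p = 0.000358). Crabp1, a retinoic acid-binding protein, was higher by 4.44 ± 0.57 and the DNA methyltransferase Dnmt3b by 3.89 ± 0.52. Dmrtb1, which controls the switch from mitosis to meiosis, was the lower one (−1.67 ± 0.44, adjusted p = 0.00706), and its 874 RPKM in R5 of mouse 544 stood against 44.8 to 116 RPKM in the 3 other R5 libraries. The most abundant gene was Meioc in mice 178 and 286, Dnmt3b in mouse 648 and Dmrtb1 in mouse 544, and the list summed to 448, 378, 526 and 998 RPKM in mice 178, 648, 286 and 544. Meioc itself was not called (0.55 ± 0.61, adjusted p = 0.493).

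Niche ligands are signals from somatic cells, among them the ligands of Gfra1 and of Kit. Gdnf, the ligand of Gfra1, was at 0.029, 0.088, 0 and 0.153 RPKM in R5 of mice 178, 648, 286 and 544 and did not pass the filter. Kitl, the ligand of Kit, stood at 2.27, 10.3, 5.62 and 2.25 RPKM and was higher in R5 than in the other gates by 1.97 ± 0.74 on the log2 scale (limma, adjusted p = 0.0405). Of the 5 ligands tested, Kitl, Cxcl12 and Csf1 were higher, and Fgf2 and Wnt5a were not called. Each of the 3 was highest in R5 of mouse 648, where the stromal list summed to 819 RPKM, with Csf1 at 46.2 RPKM. The 6 ligands summed to 17.7, 75.5, 25.6 and 7.43 RPKM, led by Csf1 in mice 178, 648 and 286 and by Kitl in mouse 544.

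Some genes of other cell types were also called between R5 and the other gates, where 20.9% of all genes were higher and 21.0% lower. All 6 peritubular and stromal genes were higher in R5 (median 2.26, Dcn 4.19 ± 0.82 on the log2 scale, limma, adjusted p = 0.00104), as were 4 of 6 macrophage genes and 2 of 5 Sertoli cell genes tested. Of 6 spermatocyte genes 2 were higher and 1 lower, of 6 spermatid genes 1 was lower, and none of 6 Leydig cell or 4 endothelial genes was called, with medians of 0.99 and 0.49. No mast cell gene passed the filter. R5 was thus called higher for 6 of the 10 factors and for all 6 stromal genes.

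Within R5, the mean level of the differentiating factors stood above that of the undifferentiated ones in every library. The mean log2(RPKM + 0.1) of the undifferentiated factors (Gfra1, Zbtb16, Id4, Nanos2 and Nanos3) minus that of the differentiating factors (Kit, Sohlh1 and Sohlh2) was −2.56 and −2.57 in wildtype mice 178 and 648 and −2.59 and −1.41 in knockout mice 286 and 544, a mean of −2.28 ± 0.58 (SD, n = 4). The first 3 libraries were nearly equal although their Kit levels differed, and mouse 544 stood apart; without it the mean was −2.57. In the other gates the values lay around 0, at −0.13 ± 0.91 in R7 (n = 6), 0.29 ± 0.54 in R6 (n = 5) and −0.16 ± 0.61 in R4 (n = 5), and in whole testes at −1.02 ± 0.39 (n = 7). The R5 range overlapped none of them but whole testis, where mouse 648 was at −1.42. This is a description of these factors, without Sall4 and Dmrt1, and with no test.

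**Figure D4:**
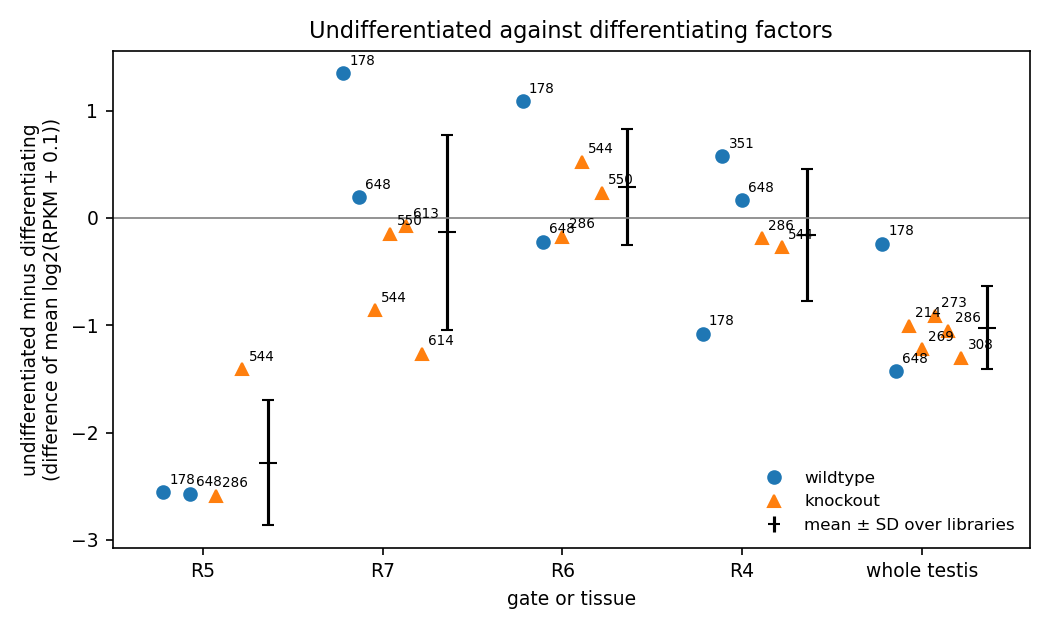
Mean log2(RPKM + 0.1) of 5 undifferentiated factors minus that of 3 differentiating factors (y axis) by gate or tissue (x axis), 1 point per library with its mouse number, circles wildtype and triangles knockout, bars mean ± SD. R5 of mice 178, 648 and 286 sits at −2.56 to −2.59 and R5 of mouse 544 at −1.41.

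Summed in RPKM, the undifferentiated factors held 17.0, 53.1, 25.6 and 15.5 RPKM and the differentiating factors 68.2, 209, 145 and 25.7 RPKM in R5 of mice 178, 648, 286 and 544. Kit made up most of the second sum in each, and Sohlh1, a differentiating factor, was below Gfra1 and Zbtb16 in all 4 libraries. By the longest transcript Kit was below Sohlh2 in mice 178 (11.5 against 12.9 RPKM) and 544 (3.78 against 5.29 RPKM), and Gfra1, at 0.939 and 1.43 RPKM, was below Sohlh1 in the same mice. With the longest transcript of each gene in place of the sum the score was −1.98, and with Sall4 placed among the undifferentiated and Dmrt1 among the differentiating factors it was −2.04. The order of genes within R5 depended on the transcripts counted. By sums, Sall4 was the most abundant factor in mice 178 and 648, Kit in mouse 286 and Dmrt1 in mouse 544. By the longest transcript, Dmrt1 led in mice 178, 286 and 544 and Sall4 in mouse 648. Nanos2 was the least abundant by both, at 0.0215% to 0.265% of the summed level of the 10 genes.

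Between genotypes, none of the 10 factors was called in R5. Over all genes limma called 0 of 19039 (0%), with 1159 at an unadjusted p under 0.05. Without mouse 286 1339 genes were called at the adjusted threshold, 1124 of them higher and 215 lower, where the knockout group is mouse 544 alone and is taken to vary like the other groups. Without mouse 613 1 gene was called. With any 1 mouse left out, no factor was called. The knockout minus wildtype differences on the log2 scale ran from −2.33 ± 1.48 for Sall4 to 0.83 ± 0.75 for Id4, with a median of −1.12 and adjusted p of 0.830 to 0.955, against a median of −0.07 over all genes. In the other lists no gene was called. The medians were 2.74 for spermatid, −2.40 for Leydig cell, −1.62 for stromal and −1.55 for macrophage genes. They were −0.60 for spermatocyte, −0.44 for Sertoli cell and −0.29 for endothelial genes. The part of all these in the factors' differences was not tested. For other undifferentiated genes, other differentiating genes and niche ligands the medians were −0.87, −0.88 and −1.22. The 2 genotypes overlapped in R5 for Zbtb16, Gfra1, Nanos3, Sohlh1, Sohlh2, Sall4, Dmrt1 and Kit. For Id4 both knockout libraries were above the 2 wildtype ones, as for 12.7% of the genes tested, and for Nanos2 both were below, as for 11.6%. With 2 mice against 2 a p that misses the threshold does not show that the levels were alike. Without mouse 544 the Kit difference changed from −1.42 to 0.49, and without mouse 648 the Gfra1 difference changed from −1.10 to 0.41, and without mouse 178 the Sohlh1 difference changed from −0.46 to 0.18. Without the R5 library of mouse 544 alone, chosen after seeing the data, Kit stood at 0.50 and 0 genes were called.

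Averaged over the 4 gates, limma called 2 of 19039 genes lower in the knockout (0.0105%) and none higher (0%), with 1325 at an unadjusted p under 0.05, and none of the 10 factors. The 2 genes, named after their values were seen, were Gm8730 and Gm13123 (−6.02 ± 0.66 and −2.27 ± 0.26, adjusted p = 0.00121 and 0.00140). Gm8730 was 8.74 to 77.1 RPKM in wildtype libraries and 0.041 to 0.570 RPKM in knockout libraries except R7 of mouse 613, at 27.1 RPKM. Gm13123 was 0.07 to 0.683 RPKM in wildtype libraries and 0 in knockout libraries except R6 of mouse 286, at 0.09 RPKM. It thus passed the filter of 0.1 RPKM only through the wildtype libraries. Its difference depends on the pseudocount and is no exact fold. With mouse as a block 0 genes were called. The count called was 925 without mouse 286, when R5 and R4 of the knockout are each mouse 544 alone, 4 without mouse 178, 3 without mouse 613, and 0 without mouse 544 or mouse 648. On the values as deposited the median of all genes was 0.24, against −0.01.

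Among the factors the differences over the gates ran from −0.57 ± 0.68 (Sall4) to 0.98 ± 0.63 (Nanos3), and the smallest adjusted p was 0.6998 (Nanos2 and Sohlh1). Without mouse 648 the differences of Sall4 and Nanos3 were 0.58 and −0.01. In R7 the 4 knockout libraries were above both wildtype ones for 5 of the 10 factors, Zbtb16, Id4, Sohlh1, Sohlh2 and Dmrt1, where 15.3% of the genes tested were so placed. Zbtb16 was at 0.456 to 5.29 RPKM against 0.073 and 0.295 RPKM, and Sohlh1 at 0.166 to 1.96 against 0 and 0.040 RPKM. R7 of mouse 613, highest for Zbtb16, had been quantified differently. The spermatid genes summed to 231, 309, 236 and 371 RPKM in R7 of knockout mice 544, 550, 613 and 614. In wildtype mice 178 and 648 they summed to 135 and 8.9 RPKM. The other undifferentiated genes summed to 44.4 to 233 RPKM against 26.1 and 18.8 RPKM. Spermatocyte, Sertoli cell, Leydig cell and stromal sums overlapped between genotypes. The part of these genes and the difference between genotypes in R7 alone were not tested. For the excess of R5 over the other gates, limma's interaction term between genotypes called none of the factors and 0 of 19039 genes (0%), with 1130 at an unadjusted p under 0.05. At the adjusted threshold 4 genes were called with the block and 437 without mouse 286, again with mouse 544 alone in R5 and R4 of the knockout. The estimates were negative for 9 of the 10 factors, and the share of all genes with a negative estimate was not counted. They were largest for Sall4 (−2.35 ± 1.67) and Sohlh2 (−2.25 ± 0.88), whose adjusted p of 0.776 was the smallest. Signs turned without mouse 648 for Gfra1 (0.29), Nanos3 (0.96) and Id4 (−0.13), and without mouse 544 for Kit (0.20). Medians were −1.59 for Leydig cell, −1.52 for stromal, −1.32 for macrophage and 1.59 for spermatid genes, and their part was not tested. For other undifferentiated and other differentiating genes they were −1.23 and −1.27. On the values as deposited the median of all genes was −0.18, against −0.06.

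In whole testes the same factors were measured without sorting, 1 library per mouse. Sall4 was 1.57 and 19.5 RPKM in wildtype mice 178 and 648 and 4.49, 7.33, 2.93, 9.92 and 44.3 RPKM in knockout mice 214, 269, 273, 286 and 308. Dmrt1 was 7.88 and 11.3 RPKM in wildtype mice 178 and 648 and 6.61, 18.4, 6.22, 15.3 and 49.9 RPKM in the knockout mice in that order. Kit was 1.68 and 16.5 RPKM in wildtype mice 178 and 648 and 5.40, 5.95, 3.62, 4.86 and 13.2 RPKM in the knockout mice. The genotypes overlapped for each of these, with mouse 308 highest for Sall4 and Dmrt1 and mouse 648 for Kit. Prm1 in the same testes was 603 and 0.681 RPKM in mice 178 and 648 and 1152, 0.850, 1922, 1.16 and 0.439 RPKM in the knockout mice in the same order. In mice 178, 648, 214, 269, 273, 286 and 308 the Sertoli cell genes summed to 55.9, 114, 58.6, 159, 49.4, 101.4 and 355 RPKM, and the stromal genes to 13.2, 39.7, 8.88, 19.6, 14.5, 26.9 and 114 RPKM, mouse 308 being highest in both. In the same order the spermatocyte genes summed to 267, 2658, 660, 988, 671, 996 and 2369 RPKM, and the other undifferentiated genes to 71.7, 53.7, 69.4, 136, 80.9, 131 and 323 RPKM. The part that RNA of spermatids, spermatocytes and somatic cells had in the factors' levels was not tested.

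For the remaining factors Zbtb16 was 0.606 and 1.01 RPKM in the wildtype testes of mice 178 and 648 and 0.394 to 4.29 RPKM in the 5 knockout ones, and Id4 was 1.99 and 5.45 RPKM against 2.74 to 11.7 RPKM. Gfra1 varied least, from 2.22 to 5.06 RPKM (median 4.13, n = 7). Sohlh1 was 0.570 and 0.277 RPKM in wildtype and 0.753, 1.495, 0.693, 1.07 and 1.65 RPKM in knockout mice 214, 269, 273, 286 and 308, so that the knockout testes were all above the wildtype ones, as for 15.9% of the genes tested. Its difference of 1.07 ± 0.58 on the log2 scale was not called (limma, adjusted p = 0.998). Sohlh2 ranged from 1.55 to 7.70 RPKM, Nanos3 from 0.258 to 1.24 RPKM and Nanos2 from 0 to 0.169 RPKM (0 to 12 reads).

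Of the 10 factors 9 passed the filter in whole testes, all but Nanos2, and none was called between genotypes. Over all genes limma called 0 of 22776 (0%), with 779 at an unadjusted p under 0.05. The differences ran from −0.48 ± 0.53 (Gfra1) to 1.07 (Sohlh1), with a median of −0.01 against 0.04 over all genes, or 0.39 over all genes on the values as deposited. Without mouse 308 the Sall4 difference changed from 0.20 to −0.36, without mouse 178 to −1.68 and without mouse 648 to 2.05, and without mouse 648 the Kit difference changed from −0.26 to 1.40. The smallest adjusted p of any gene was 0.191. The wildtype ovary was above both wildtype testes for 4 of the 10 factors (Zbtb16, Gfra1, Nanos2 and Kit), where 50.8% of the genes tested were.

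**Figure D5:**
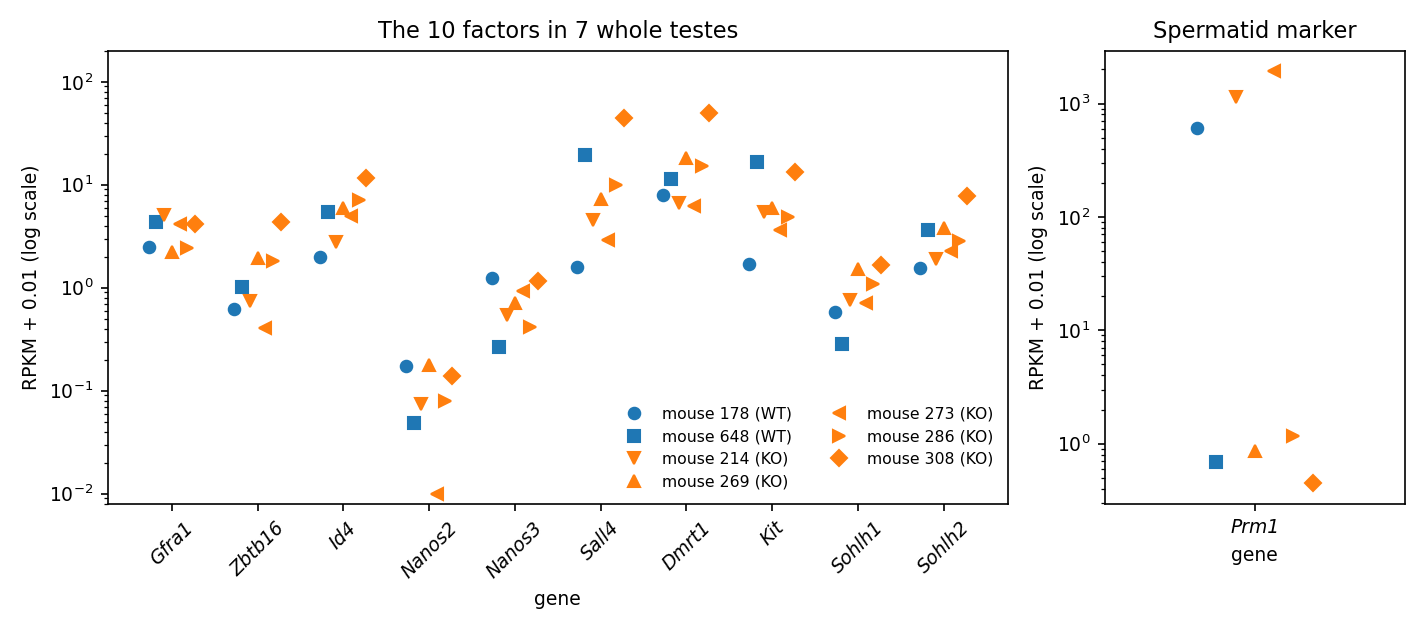
Level of the 10 factors (left, RPKM + 0.01, log scale) and of the spermatid gene Prm1 (right, same scale of its own) in the 7 whole testes, 1 point per mouse, blue wildtype and orange knockout. Mouse 308 is highest for Sall4 (44.3 RPKM) and Dmrt1 (49.9 RPKM), and Prm1 is below 2 RPKM in mice 648, 269, 286 and 308.

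Across the 20 sorted libraries the factors fell into levels that moved together to different degrees. Pearson's r of log2(RPKM + 0.1) was 0.96 between Sall4 and Dmrt1, 0.95 between Dmrt1 and Kit and 0.94 between Sall4 and Kit and between Zbtb16 and Dmrt1. Id4 had its highest r with Nanos2 (0.20) and its lowest with Gfra1 (−0.45). Gfra1 and Kit stood at 0.77, and Gfra1 and Zbtb16, both undifferentiated factors, at 0.58. The 20 libraries share gates, mice and dissections, so these values describe them and were not tested.

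The 5 genes most like Kit over the 20 sorted libraries, among 13294 genes with a mean of at least 1 RPKM, were Ebf3 (r = 0.98), D330045A20Rik (0.96), Gsr (0.96), Anp32e (0.96) and Btbd3 (0.96). Gsr, glutathione reductase, was the most abundant of them at 89.7, 440, 371 and 53.7 RPKM in R5 of mice 178, 648, 286 and 544 and at most 64.1 RPKM elsewhere. Ebf3, a transcription factor, was 11.5, 23.4, 29.0 and 6.18 RPKM in R5 and at most 3.43 RPKM in the other 16 libraries. The R5 libraries were above all others for Ebf3 and overlapped them for Gsr. Outside R5, D330045A20Rik and Btbd3 were at most 1.70 and 1.15 RPKM in any library, with gate medians of at most 0.371 and 0.348 RPKM. These 2 genes reached the mean of 1 RPKM only through R5.

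The 5 genes most like Gfra1 were Lrrfip1 (r = 0.90), Sh3bp1 (0.88), Reln (0.88), Abr (0.86) and Smc1a (0.86). Reln, an extracellular matrix protein, was 37.1, 89.7, 55.1 and 19.5 RPKM in R5 of mice 178, 648, 286 and 544 and at most 15.9 RPKM elsewhere, and Sh3bp1 was 13.3, 72.3, 18.5 and 5.71 RPKM. All 5 were highest in R5 of mouse 648, as Gfra1 was, the library with the highest stromal sum. The genes like Gfra1 and like Kit were picked over these same libraries, so shared peaks largely restate the choice. Lrrfip1 had gate medians of 0.421 to 0.508 RPKM outside R5 and 1.60 to 18.6 RPKM in R5, so its passing of the 1 RPKM mean rested largely on R5. Smc1a, a cohesin subunit of mitotic cells, was 17.8, 83.3, 46.2 and 7.93 RPKM in R5. None of the 5 genes like Gfra1 was among the 5 like Kit.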

How the data were processed

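Polyadenylated RNA of 27 testis and germ cell libraries (and 1 ovary, used only as a value) had been read as paired ends, mapped to Ensembl R72 with TopHat2 and deposited by the authors as RPKM per transcript. Transcripts were matched to GENCODE M21 (95.7% of 94480) and summed per gene over those with a value in every library of a fit. Depth, estimated in 26 libraries from values lying on whole reads, ran from 23800000 to 61600000 reads (median 45200000), which limits genes with few reads.

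Gene RPKM were quantile-normalized over all genes of a fit, before any filter. Genes with a mean of at least 0.1 RPKM before normalization were then tested as log2(RPKM + 0.1) with limma 3.58.1 (R 4.3.3, eBayes with trend). Sorted libraries were fitted in 8 groups of genotype by gate, and whole testes separately. Called means a Benjamini-Hochberg adjusted p under 0.05 over all genes. The fit was tested on simulated data. Figures used Python 3.11.15 and matplotlib 3.10.9.

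Named were the 10 factors, the marker lists, Csmd1 and the 5 genes with the highest Pearson r with Gfra1 and with Kit. The members and lists were chosen with earlier results of these data known. Libraries of the same number come from the same mouse, and residuals of 22 such pairs had a median r of 0.468 (−0.201 to 0.704), against −0.0362 in 151 other pairs. Alternatives were the scaling, pseudocount, filter, longest transcript, each mouse left out, mouse as a block and wildtype libraries alone. Missing values counted as 0, and libraries that stood apart left out, were added after seeing the data.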

Additional observations from a re-analysis of the deposited data

Results flagged for a closer look

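In groups of 4 or 5 knockout libraries, 6 of 20 groups had a library far from the others, where chance flags about 1 in 20 groups if values are normal and independent, which was not measured for these RPKM. The 6 came from 3 libraries, and genes of 1 library are not independent of each other. In R7 of knockout mice, Nanos2 was 0.42 RPKM in mouse 613, against 0.043 to 0.101 RPKM in the 3 others, and Nanos3 was 3.29 RPKM in the same library, against 0.588 to 0.636 RPKM. That library had been quantified differently. Kit was 15.6 RPKM in R7 of mouse 614, against 1.82 to 3.63 RPKM. In knockout whole testes, mouse 308 was far above the 4 others for Sall4 (44.3 RPKM against 2.93 to 9.92 RPKM), Dmrt1 (49.9 against 6.22 to 18.4 RPKM) and Kit (13.2 against 3.62 to 5.95 RPKM). Its Sertoli cell genes summed to 355 RPKM (49.4 to 159 RPKM in the 4 others) and its stromal genes to 114 RPKM (8.88 to 26.9 RPKM). Its spermatocyte genes summed to 2369 RPKM (660 to 996 RPKM) and its other undifferentiated genes to 323 RPKM (69.4 to 136 RPKM). Its Prm1 was 0.439 RPKM, and in knockout mice 214, 269, 273 and 286 Prm1 was 1152, 0.850, 1922 and 1.16 RPKM, Sall4 4.49, 7.33, 2.93 and 9.92 RPKM and Dmrt1 6.61, 18.4, 6.22 and 15.3 RPKM. In wildtype mouse 648 Prm1 was 0.681, Sall4 19.5 and Kit 16.5 RPKM. The part of these in the high values was not tested.

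The wildtype ovary, 1 library outside every comparison, held 4 of the 10 factors above both wildtype testes, where 50.8% of the genes tested were so placed: Zbtb16 at 2.56 RPKM (testes 0.606 and 1.01 RPKM), Gfra1 at 7.18 RPKM (2.48 and 4.34 RPKM), Nanos2 at 0.171 RPKM (0.165 and 0.039 RPKM, or 14 reads against 12 and 3) and Kit, which oocytes are known to use, at 30.4 RPKM (1.68 and 16.5 RPKM). With 1 ovary the difference has no replicate check.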

How the results depend on the processing

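The comparisons of R5 kept the calls of Sall4, Dmrt1, Kit and Sohlh1 in every run, while Gfra1 and Id4 against the other gates, and Gfra1, Zbtb16 and Sohlh2 against R7, depended on single mice, the scaling or other settings. The block added both calls of Gfra1 and changed no other call of a factor. Groups of 2 mice, overlapping transcripts and RNA of other cells limit all comparisons, and the genotype comparisons turned with single mice, for which the cause was not tested. Depth limits Nanos2, Nanos3 and Sohlh1, read from few reads. Without the R5 library of mouse 544, without the R4 libraries of mice 648 and 286, and with missing transcripts counted as 0, the runs were chosen after seeing the data.

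Genes called, with 1 mouse left out at a time, ran from 3693 to 8838 for R5 against the other gates, 2243 to 6705 against R7, 0 to 1339 for genotype in R5, 0 to 925 for genotype over the gates and 0 to 437 for the interaction. Genotype in R5 gave 1 gene at a pseudocount of 0.01 or 1 and 40 without the filter. Over the gates 1 was called at a pseudocount of 1, 12 without the filter and 0 with the block. The interaction gave 3 at a pseudocount of 0.01, 35 without the filter and 4 with the block, and whole testis 1 at a pseudocount of 0.01.

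Log2 differences that changed sign, none of them called, follow. Nanos2 against R7 was 0.57 as deposited, 0.0489 in wildtype alone and −0.12 to 0.0497 without 1 mouse. For genotype in R5, Kit was 0.50 without R5 of mouse 544, and without 1 mouse Gfra1 ran from −2.61 to 0.41, Sohlh1 −1.08 to 0.18 and Kit −3.37 to 0.49. Over the gates, values as deposited gave Gfra1 0.0446, Dmrt1 0.39 and Kit 0.24, missing as 0 gave Dmrt1 0.0016, leaving out R5 of mouse 544 gave Dmrt1 0.30 and Kit 0.29, and the block gave Dmrt1 0.21 and Kit 0.0131. Without 1 mouse Zbtb16 ran from −0.38 to 0.69, Gfra1 −0.87 to 0.20, Nanos3 −0.009 to 1.72, Sall4 −1.52 to 0.58, Dmrt1 −0.78 to 0.67 and Kit −0.84 to 0.62. In the interaction, Kit was 0.27 without R5 of mouse 544, and without 1 mouse Gfra1 ran from −2.32 to 0.29, Id4 −0.13 to 1.53, Nanos3 −2.01 to 0.96 and Kit −3.47 to 0.20. In whole testis, values as deposited gave Gfra1 0.0628, Nanos3 0.21, Sohlh2 0.43, Dmrt1 0.59 and Kit 0.16, and the longest transcript gave Dmrt1 0.12. Without 1 mouse Zbtb16 ran from −0.29 to 1.45, Id4 −0.50 to 1.07, Nanos3 −0.83 to 0.47, Sohlh2 −0.77 to 0.72, Sall4 −1.68 to 2.05, Dmrt1 −0.45 to 0.26 and Kit −1.96 to 1.40.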
